A study of Mus musculus with 167 samples.

Results

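Ide, Galnt11, Tnfaip8l1, Gabra3, Fam25c and Eif4a3 are 6 genes of mouse liver, out of 39179 in the deposited count table. The members were selected on measured values, namely their change with the CAG repeat length of Htt at 2 months of age over the knock-in lines and in Q175 against Q20, among genes that do not belong to the extracellular matrix. The values at 2 months therefore describe the choice and carry no test, and the question is what each line showed and whether the change was also measured at 6 and 10 months. The libraries hold polyA RNA from liver of C57BL/6 mice, 56 at 2 months, 56 at 6 months and 55 at 10 months, in 21 groups of genotype and age. In 6 lines the mice were heterozygous knock-in, with 1 engineered Htt allele beside the normal mouse allele, and the lines are named for their repeat as Q20, Q80, Q92, Q111, Q140 and Q175. Mice of each knock-in line were caged with their own line, and the wild-type mice with Q20 mice. Every genotype had 4 females and 4 males at 2, 6 and 10 months, except Q80, which had 3 libraries labelled female and 5 labelled male at 2 months and 4 females and 3 males at 10 months. Each repeat length is represented by 1 line, so the repeat and anything else particular to a line cannot be told apart. The labels number the replicates without saying that each came from a separate animal, so p-values measure the spread between these libraries.

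Huntingtin, the product of Htt, carries a glutamine tract that the CAG repeat encodes, and long repeats cause Huntington's disease, best known from the brain. The knock-in lines form a series in which Q20 has a repeat in the normal range and the others have expanded repeats. The 6 genes share no pathway. Ide encodes insulin-degrading enzyme, a zinc metallopeptidase that cleaves insulin and other small peptides. Galnt11 encodes a transferase that adds the first sugar of mucin-type O-glycans to secreted and membrane proteins. Tnfaip8l1 belongs to the small TNFAIP8 family of lipid-binding proteins. Gabra3 encodes the alpha-3 subunit of the GABA-A receptor, a chloride channel opened by GABA and known mainly from neurons. Fam25c encodes a small protein with little described function. Eif4a3 encodes an RNA helicase at the core of the exon junction complex, which marks spliced mRNA and takes part in nonsense-mediated decay.

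In the GENCODE M21 annotation of GRCm38, Ide (ENSMUSG00000056999) lies on chromosome 19 from 37268743 to 37337852 on the minus strand, and Galnt11 (ENSMUSG00000038072) on chromosome 5 from 25221904 to 25265918 on the plus strand. Tnfaip8l1 (ENSMUSG00000044469) lies on chromosome 17 from 56162477 to 56173955 on the plus strand, and Gabra3 (ENSMUSG00000031343) on chromosome X from 72432681 to 72656848 on the minus strand. Fam25c (ENSMUSG00000043681) lies on chromosome 14 from 34351881 to 34355433 on the minus strand, and Eif4a3 (ENSMUSG00000025580) on chromosome 11 from 119288363 to 119300089 on the minus strand. All 6 are annotated as protein-coding, and the values are totals per gene. Galnt11 is the member on the chromosome of Htt, with 9.54 Mb between the starts of the genes. Galnt11 shares 306 exonic bases with E130116L18Rik on the other strand, which had a mean count of 0. The estimated count of Eif4a3 was not whole in 66 libraries, whereas every count of Tnfaip8l1 and Fam25c was whole, and where the fractions come from was not tested.

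Totals ran from 32025244 to 57151736 estimated counts per library, with medians between 34696186 at 2 months and 46777191 at 6 months. Levels are given below as CPM, which are counts scaled to library size by TMM over all libraries, and changes as log2 differences with their standard error. How often the ranges of groups do not overlap was not counted over all genes, so statements on overlap are descriptions. The 10 hepatocyte markers summed to between 76510 and 158400 CPM over all libraries. Of the Q20 females at 6 months, F1, F3 and F4 stood apart: their 12 Kupffer cell markers summed to between 1097 and 1304 CPM against 136 to 836 in the other 53 libraries of that age. At 6 months the library names fall into sets by suffix: Q80 with Q175, Q111 with Q140, Q20 with Q92, and wild type alone. These suffixes were read as index sets, which the labels do not name. At that age only Q92 shares its set with Q20. For Q80, Q111, Q140, Q175 and wild type against Q20, genotype and index set therefore cannot be told apart. Q175 F3 and M3 had no suffix and were placed with the rest of their line. At 10 months, Q175 F3, F4 and M4 were set apart for muscle or blood RNA. Their muscle markers summed to between 1.28 and 861.5 CPM and their red cell markers to between 318 and 7919. In the other 52 libraries these sums were at most 1.53 and 606.8, so not each of the 3 was high in both. The Q80 library labelled male M5 at 2 months had 0 CPM of 4 Y-linked genes, against 133.9 to 174 in the other 28 libraries labelled male. In bulk tissue, fewer cells of a type and less RNA per cell cannot be told apart.

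Per exon length, Ide was the most abundant of the 6 with a median of 22.7 FPKM over all libraries, followed by Fam25c at 18.9 and Eif4a3 at 17.3. Galnt11 had a median of 5.51 FPKM and Tnfaip8l1 of 5.31. Gabra3 was far lower at 0.62 FPKM. The ranges of Ide, Fam25c and Eif4a3 overlapped, as did those of Galnt11 and Tnfaip8l1, while every Gabra3 value, from 0.229 to 1.43 FPKM, lay below every value of the other members.

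At 2 months, 5 of the members were higher with a longer repeat and Gabra3 was lower. The slope over the 6 knock-in lines, as the log2 change per 100 CAG repeats, was -0.59 ± 0.09 for Gabra3, 0.58 ± 0.13 for Fam25c, 0.31 ± 0.09 for Ide, 0.30 ± 0.08 for Tnfaip8l1, 0.28 ± 0.08 for Galnt11 and 0.12 ± 0.03 for Eif4a3. As a description of the choice, the slope passed an adjusted p of 0.05 in edgeR's quasi-likelihood test for 3 members, with 0.266% of all genes tested past it, and Q175 against Q20 passed it for 5, with 0.258% of all genes. In the same description, Ide in Q175 against Q20 lay just inside that limit, at an adjusted p of 0.0462 in edgeR. Just outside lay the slope of Tnfaip8l1 at 0.0571 and Fam25c in Q175 against Q20 at 0.0605. These values chose the members, so the counts and p-values are no test of them. Without the Q175 libraries the slope of Ide at 2 months was -0.002, so its change lay in that line.

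At 6 months, Galnt11 rose and Gabra3 fell in Q175 relative to Q20, Eif4a3 rose by a small amount, and Ide, Tnfaip8l1 and Fam25c did not pass the test. The slope passed it for 2 of 6 members, Galnt11 and Eif4a3, with 5.67% of all genes past it, and Q175 against Q20 for 3 of 6, with 10.2% of all genes. At 10 months no member passed in either comparison, with 0.25% of all genes past the limit for the slope and 0.931% for Q175 against Q20 in edgeR. Galnt11 alone had an unadjusted p under 0.05 there, in both comparisons, where 10% and 13.1% of all genes did, and DESeq2 called 0 of 6 in each. With Q20 F1, F3 and F4 left out, no member passed at 6 months in either comparison, and the genes called over the whole table dropped from 879 to 23 for the slope and from 1595 to 2 for Q175 against Q20. The slopes at 10 and 6 months were compared directly: 0 of 6 members differed, with 2.4% of all genes doing so, although Gabra3 had an unadjusted p of 0.0175, with 14.7% of all genes at an unadjusted p under 0.05. DESeq2 also called 0 of 6 for that difference.

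**Figure D1:**
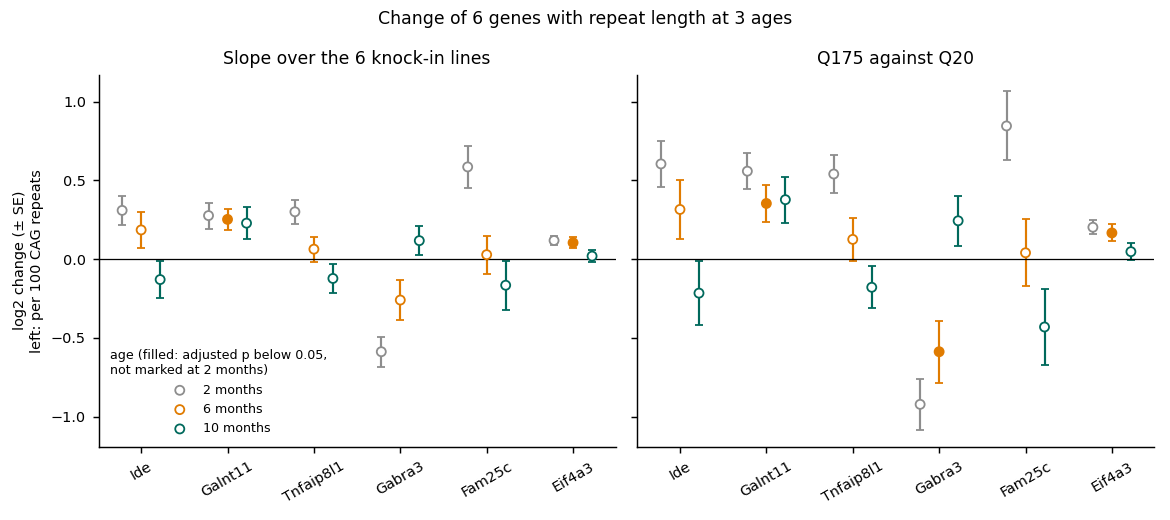
Log2 change of the 6 genes with repeat length at 2 (grey), 6 (orange) and 10 months (green), as the slope per 100 CAG repeats over the 6 knock-in lines (left) and as Q175 against Q20 (right). Points are estimates and bars 1 standard error; filled points passed an adjusted p of 0.05, which was not marked at 2 months because those values chose the genes. Only Galnt11 kept a value above 0.2 in both panels at all 3 ages, and Gabra3 moved from -0.59 at 2 months to 0.12 at 10 months on the left.

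Galnt11 was the member whose level stayed higher in all 5 expanded lines at every age. Of the later ages, its test was passed at 6 months and not at 10. At 2 months the Q20 libraries lay between 8.96 and 15.2 CPM (median 11.7), and the Q175 libraries between 9.96 and 23.0 (median 17.2.) Wild-type libraries lay between 9.69 and 13.2 CPM with a median of 11.2. The ranges of Q175 and Q20 overlapped, but 6 of 8 Q175 libraries were above every Q20 library. Against Q20 the change at 2 months was 0.63 ± 0.11 in Q80, 0.29 ± 0.11 in Q92, 0.46 ± 0.11 in Q111, 0.37 ± 0.11 in Q140 and 0.56 ± 0.11 in Q175. The change was thus as large in Q80 as in Q175, and without the Q20 libraries the slope of Galnt11 at 2 months was 0.03.

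The 6-month Q20 libraries of Galnt11 lay between 9.85 and 14.3 CPM (median 11.1), and the Q175 libraries between 9.93 and 19.9 (median 15.3.) In wild type the libraries lay between 9.44 and 13.4 CPM (median 11.5.) In 4 of 8 Q175 libraries, all of them female, the level was above every Q20 library. The slope was 0.25 ± 0.07 per 100 repeats with an adjusted p of 0.0231, Q175 exceeded Q20 by 0.35 ± 0.12 with an adjusted p of 0.0413, and Q140 exceeded Q20 by 0.37 ± 0.12 with an adjusted p of 0.0489 (edgeR). Galnt11 was the 1 member of 6 called in Q140, where 4.91% of all genes were. In Q111, Q80 and Q92 the differences from Q20 were 0.28 (± 0.12), 0.19 (± 0.12) and 0.18 (± 0.12), with adjusted p-values of 0.19, 0.328 and 0.301; in Q111, 0.678% of all genes were called. Among the expanded lines only Q92 shares its index set with Q20, so for Q175 and Q140 genotype and index set cannot be told apart. With the index set in the model the slope was 0.21 with an adjusted p of 0.161 in edgeR. With Q20 F1, F3 and F4 left out the slope was 0.25 and Q175 differed from Q20 by 0.39, with adjusted p-values of 0.182 and 0.198, so the sizes held and the calls did not. On the FPKM table, limma gave 0.23 with an adjusted p of 0.0602 for the slope and 0.30 with an adjusted p of 0.107 for Q175 against Q20. With single libraries left out the slope passed in 14 of 16 fits, failing without Q20 F2 or F3 at adjusted p-values up to 0.0549. Q175 against Q20 passed in 5 of 16 such fits, those without Q20 M1, M3 or M4 or Q175 M1 or M2, and its adjusted p in the other 11 was at most 0.0778.

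At 10 months the Q20 libraries of Galnt11 lay between 9.86 and 14.8 CPM (median 11.2), and the Q175 libraries between 9.83 and 25.6 (median 13.7.) Medians were 19.5 CPM in Q80, 15.6 in Q92, 17.8 in Q111, 15.3 in Q140 and 12.4 in wild type. Every expanded line thus had a higher median than Q20 and wild type, and within females no library of the 5 expanded lines fell into the Q20 range of 9.86 to 13.3 CPM. In males each of the 5 lines overlapped Q20, and 3 of the 4 Q20 females were also below every wild-type female. The changes against Q20 were 0.57 ± 0.15 in Q80, 0.35 ± 0.15 in Q92, 0.53 ± 0.15 in Q111, 0.52 ± 0.15 in Q140 and 0.38 ± 0.15 in Q175, with unadjusted p-values between 0.000407 and 0.0201. After adjustment over all genes none passed, the nearest being Q111 at 0.0641 and Q92 at 0.17. The share of all genes past the limit was 0.00637% in Q80, 3.72% in Q92, 0.962% in Q111, 0% in Q140 and 0.931% in Q175. The slope was 0.23 ± 0.10 with an adjusted p of 0.434, and -0.09 without the Q20 libraries, so among the expanded lines the level did not follow the repeat length.

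**Figure D2:**
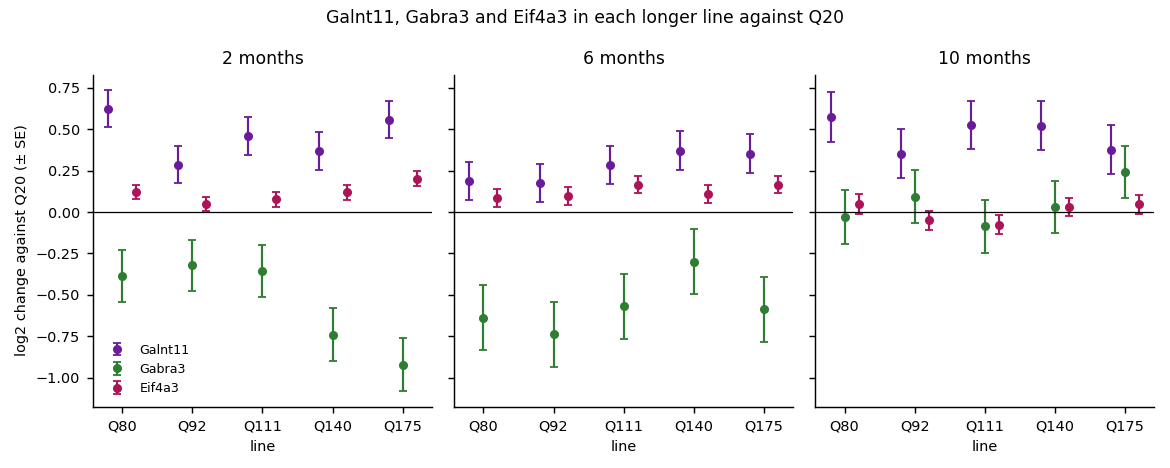
Log2 change of Galnt11 (purple), Gabra3 (green) and Eif4a3 (pink) in each longer line against Q20 at 2, 6 and 10 months; points are edgeR estimates and bars 1 standard error, and all lines of an age share the same 8 Q20 libraries. Galnt11 lay between 0.18 and 0.63 in all 15 comparisons, Gabra3 was below 0 in every line at 2 and 6 months and between -0.09 and 0.24 at 10 months, and Eif4a3 lay between -0.08 and 0.20.

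Galnt11 was also higher in females at each age, by 0.41 ± 0.06, 0.41 ± 0.06 and 0.34 ± 0.08 at 2, 6 and 10 months, with adjusted p-values of 1.09e-07, 1.31e-07 and 0.000258 in edgeR. The 4 Q175 females at 6 months lay between 17.6 and 19.9 CPM and the 4 Q20 females between 11.2 and 14.3, without overlap, whereas the Q175 males, from 9.93 to 13.1, overlapped the Q20 males, from 9.85 to 10.9. The slope was 0.35 in females alone and 0.15 in males alone, and the difference of 0.20 ± 0.14 between the sexes had an adjusted p of 0.573. The differences of Q20 itself from wild type at 2, 6 and 10 months were 0.05 ± 0.11, 0.04 ± 0.12 and -0.09 ± 0.15, and no test of this was passed. Q175 exceeded wild type by 0.40 ± 0.12 at 6 months, with an adjusted p of 0.00858, a comparison in which 25.2% of all genes passed and in which the index sets differ. At 10 months that difference was 0.29 ± 0.15 with an adjusted p of 0.383, and 1.09% of all genes passed. The library Q80 M5, labelled male, had 20.96 CPM at 2 months, within the 19.5 to 24.2 CPM of the Q80 females and above the other 4 libraries labelled male. Without it the slope of Galnt11 at 2 months was 0.29 (0.295).

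Gabra3 was low in Q175 at 2 months, fell in Q80, Q92 and Q175 relative to Q20 at 6 months, and did not pass the test in any line at 10 months. At 2 months the Q20 libraries lay between 1.91 and 3.25 CPM (median 2.92), and the Q175 libraries between 1.14 and 1.99 (median 1.38.) Wild-type libraries ran from 1.67 to 2.79 CPM with a median of 2.18. In 7 of 8 Q175 libraries the level was below every Q20 library, and within each sex the Q175 and Q20 ranges did not overlap. The changes against Q20 at 2 months were -0.39 ± 0.16 in Q80, -0.32 ± 0.15 in Q92, -0.36 ± 0.16 in Q111, -0.74 ± 0.16 in Q140 and -0.92 ± 0.16 in Q175, largest in the lines with the longest repeats. The counts behind these values are small, between 28 and 198 per library, so counting error is larger than for the other members.

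The 6-month Q20 libraries of Gabra3 lay between 2.46 and 3.85 CPM (median 3.20), and the Q175 libraries between 0.776 and 2.80 (median 2.05.) In wild type the libraries lay between 1.70 and 3.20 CPM (median 2.11), close to Q175. Against Q20, Gabra3 fell by 0.59 ± 0.20 in Q175, by 0.64 ± 0.20 in Q80 and by 0.74 ± 0.20 in Q92 on the log2 scale, with adjusted p-values of 0.0444, 0.0353 and 0.00851 in edgeR. It was the 1 member of 6 called in Q80 and in Q92, where 8.24% and 16.6% of all genes were called. The difference was -0.57 ± 0.20 in Q111, with an adjusted p of 0.124, and -0.30 ± 0.19 in Q140, with an adjusted p of 0.393. The size did not follow the repeat: the slope was -0.26 ± 0.12 with an adjusted p of 0.219, and 0.20 without the Q20 libraries. Relative to wild type, Q20 was higher by 0.52 ± 0.20 with an adjusted p of 0.0344, while Q175 differed by -0.06 ± 0.20 with an adjusted p of 0.855. The Q20 and wild-type libraries of 6 months carry different index sets, so genotype and index set cannot be told apart in that comparison. In it 31.3% of all genes passed, Gabra3 and Fam25c among the members. The same limit holds for Q80, Q111, Q140 and Q175 against Q20 at 6 months, and not for Q92. With Q20 F1, F3 and F4 left out, Q175 differed from Q20 by -0.48 with an adjusted p of 0.33, and without Q175 M1 by -0.46 with an adjusted p of 0.106. The test was passed in 7 of 16 fits with a library left out, and failed without Q20 F1, F3, F4 or M1 or Q175 F1, M1, M2, M3 or M4.

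At 10 months the Q20 libraries of Gabra3 lay between 1.84 and 3.59 CPM (median 2.70), and the Q175 libraries between 2.19 and 4.28 (median 3.04.) The groups overlapped, and 6 of 8 Q175 libraries lay above the Q20 median. The slope was 0.12 ± 0.09 with an adjusted p of 0.696 and Q175 differed from Q20 by 0.24 ± 0.16 with an adjusted p of 0.542. The other 4 lines differed from Q20 by between -0.09 and 0.09.

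Although chosen as a gene outside the matrix, Gabra3 varied from library to library with matrix genes. After the mean of each group and sex was taken off, the genes most like Gabra3 over all libraries were Tnxb, which encodes the matrix protein tenascin-X, at r = 0.689, Lhfp at r = 0.687 and Dcn, which encodes the matrix proteoglycan decorin, at r = 0.679. With the mean of 12 stellate cell and fibroblast markers the correlation was 0.671, against 0.353 for the sinusoidal endothelial markers and 0.102 for the hepatocyte markers. For the other members the correlation with the stellate markers lay between -0.22 (-0.218) and 0.095. These libraries share depth and composition, so the values are descriptions.

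**Figure D3:**
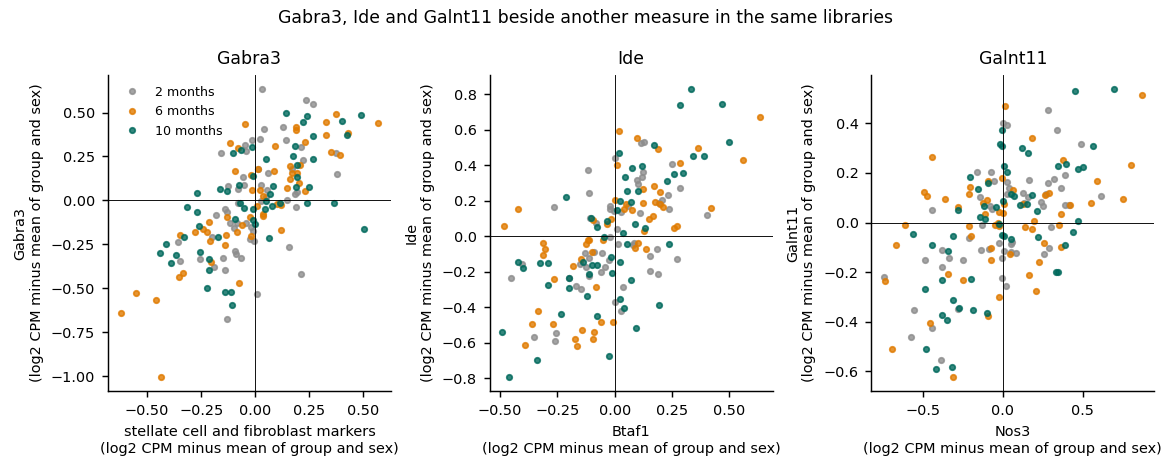
Gabra3 against the mean of 12 stellate cell and fibroblast markers, Ide against Btaf1 and Galnt11 against Nos3; each point is 1 library, as log2 CPM minus the mean of its group and sex, coloured by age. The points rise together in all 3 panels, with correlations of 0.671, 0.632 and 0.537.

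The stellate markers also had a lower median sum in Q175 than in Q20 at 2 and 6 months, with overlapping ranges. Their sum had a median of 475.8 CPM (357 to 524) in Q20 and 391.6 (267 to 453) in Q175 at 2 months. At 6 months it was 495.9 (339.8 to 653.7) in Q20 and 406.6 (220.6 to 542) in Q175, and in Q20 F1, F3 and F4 it lay between 607.4 and 653.7 CPM, above the 216 to 602.5 of the other 53 libraries. At 10 months it was 390.2 (241.5 to 560.8) in Q20 and 483.7 (401.6 to 524.3) in Q175. In Q140 at 6 months the median sum was 518.6 (282.6 to 602.5), overlapping Q20, and Gabra3 differed from Q20 by -0.30. In Q92 at 2 months the median sum was 473.1 (381.4 to 548.9), also overlapping Q20, and Gabra3 differed by -0.32. No marker of the list was at 0 in any group. In Q175 against Q20 at 6 months, 0 of the 12 rose and 3 fell, namely Hgf, Reln and Dcn, beside 10.2% of all genes called. The list median there was -0.39 against -0.01 for all genes. Markers of other cell types fell there too: 11 of 12 for Kupffer cells with a median of -0.85 and 4 of 10 for sinusoidal endothelium with a median of -0.62. For neutrophils it was 3 of 4 tested with a median of -1.62. In Q20 F1, F3 and F4 the Kupffer cell sum was 1097 to 1304 CPM and the endothelial sum 591.3 to 666.6. Both lay above the other 53 libraries, and the neutrophil sum did not. With the slope at 6 months 0 of the 12 stellate markers rose and 0 fell, with 2 at an unadjusted p under 0.05, which 21.1% of all genes had. With the slope at 2 months 0 of the 12 rose and 3 fell in edgeR, beside 0.266% of all genes called. An unadjusted p under 0.05 was then found for 8 of the 12 and for 15.3% of all genes. The part of these markers in the change of Gabra3 was not tested.

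Eif4a3 had the smallest change of the 6 at 2 months. At 2 months the Q20 libraries lay between 22.4 and 28.1 CPM (median 23.6), and the Q175 libraries between 26.1 and 32.5 (median 27.2), with all 8 Q175 libraries above the Q20 median. Wild-type libraries ran from 22.8 to 26.8 CPM with a median of 26.2. The change against Q20 at 2 months was 0.20 ± 0.04 in Q175, 0.12 ± 0.04 in both Q80 and Q140, 0.08 ± 0.04 in Q111 and 0.05 ± 0.04 in Q92. At 6 months the Q20 libraries lay between 20.1 and 26.2 CPM (median 24.7), and the Q175 libraries between 25.4 and 29.01 (median 27.2.) In 7 of 8 Q175 libraries Eif4a3 was above every Q20 library, and within each sex the ranges did not overlap. At that age 0 of 8 Q175 libraries were above every wild-type library.

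For Eif4a3 the slope at 6 months was 0.10 ± 0.03 with an adjusted p of 0.0453 in edgeR. Q175 exceeded Q20 by 0.17 ± 0.05 with an adjusted p of 0.0388, a 1.12-fold difference. Q175 and Q20 carry different index sets at that age, so genotype and index set cannot be told apart there. In wild type the libraries lay between 22.7 and 29.6 CPM (median 26.4), and Q175 differed from them by 0.05 ± 0.05 with an adjusted p of 0.515. With Q20 F1, F3 and F4 left out the slope was 0.07 with an adjusted p of 0.389 and Q175 against Q20 0.13 with an adjusted p of 0.306. With the index set in the model the slope was 0.09 with an adjusted p of 0.194, and without Q20 F1 alone the adjusted p was 0.131 for the slope and 0.118 for Q175 against Q20. With single libraries left out the slope passed in 7 of 16 fits, failing without Q20 F1, F2, F3 or F4 or Q175 F3, F4, M2, M3 or M4, and Q175 against Q20 in 11 of 16, failing without Q20 F1, F2 or F3 or Q175 F3 or M4. At 10 months Q20 ran from 21.9 to 28.4 CPM and Q175 from 23.0 to 31.3, with medians of 26.1 and 26.03, and the ranges overlapped. In females Q175 ran from 26.3 to 31.3 CPM against 21.9 to 27.8 in Q20, and in males from 23.0 to 25.8 against 23.8 to 28.4, and the difference of the slopes between the sexes of 0.17 ± 0.07 had an adjusted p of 0.25. The slope at 10 months was 0.02 ± 0.04 with an adjusted p of 0.904.

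The genes most like Eif4a3 over the libraries were Eif3g, which encodes a subunit of the translation initiation factor eIF3, at r = 0.677, Eif1b at r = 0.67 and Gpatch4 at r = 0.664. Of 26 genes of the exon junction complex and nonsense-mediated decay, 2 rose with the repeat at 6 months and 0 fell: Pym1, which takes the complex apart during translation, at 0.18 ± 0.05 with an adjusted p of 0.0325, and Eif4a3 itself. That is 2 of 26 beside 5.67% of all genes for this slope, with the member that was chosen as 1 of the 2. The median of the list was 0.03 against 0.00 for all genes (0.001). This count and those of the other lists at 6 months come from the comparison whose calls dropped from 879 to 23 with Q20 F1, F3 and F4 left out. Of 12 eIF4A helicases and partners, the chosen member Eif4a3 was the 1 that rose with the slope, beside 5.67% of all genes called.

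Ide was higher in Q175 than in any other line at 2 months, and not afterwards. At 2 months the Q20 libraries lay between 78.0 and 151 CPM (median 97.6), and the Q175 libraries between 121 and 202 (median 154.) Wild-type libraries ran from 79.2 to 195 CPM with a median of 122.5. The Q175 and Q20 ranges overlapped over all libraries and did not within either sex. Q175 differed from Q20 by 0.60 ± 0.14, and Q80, Q92, Q111 and Q140 by 0.02, 0.19, -0.12 and 0.04, each with a standard error of 0.14 or 0.15. Relative to wild type the 2-month difference of Q175 was 0.33 ± 0.14, given as a description, with 0.509% of all genes past the limit in that comparison.

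The 6-month Q20 libraries of Ide lay between 55.4 and 190.6 CPM (median 77.4), and the Q175 libraries between 68.1 and 197 (median 108.8.) The low end of Q20 came from its 4 females, between 55.4 and 64.7 CPM, below every Q175, Q140 and Q80 female. The slope was 0.19 ± 0.11 with an adjusted p of 0.353, Q175 differed from Q20 by 0.32 ± 0.19 with an adjusted p of 0.282, and the other 4 lines differed from Q20 by between 0.24 and 0.34. Q175 differed from wild type by -0.03 ± 0.19, with an adjusted p of 0.933. At 10 months Q20 ran from 69.1 to 242.7 CPM with a median of 118, and Q175 from 84.4 to 189 with a median of 92.0. Only 2 of 8 Q175 libraries were above the Q20 median, and the slope was -0.13 ± 0.12 with an adjusted p of 0.758.

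Ide varied widely among libraries of 1 group, and this variation was shared with a neighbour. Its most similar gene of 11967 was Btaf1, a TATA-box binding protein associated factor whose gene starts 342.7 kb away on chromosome 19, with r = 0.632 over all libraries and 0.506, 0.637 and 0.703 at 2, 6 and 10 months. The next were Sec23b and Ubxn4, both at r = 0.381. Over the 16 expressed genes within 1 Mb the median correlation with Ide was -0.04. Btaf1 differed between Q175 and Q20 by 0.28 ± 0.10 at 2 months and by -0.04 ± 0.14 at 6 months, where its adjusted p was 0.9. Females had less Ide than males at each age, by -0.37 ± 0.08, -0.66 ± 0.10 and -0.42 ± 0.11, with adjusted p-values of 7.14e-05, 1.24e-07 and 0.00115 in edgeR.

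Of 7 tested peptidases of the family of Ide and related mitochondrial subunits, 0 rose and 0 fell with the repeat at 6 months. An unadjusted p under 0.05 was found for 1 of them and for 21.1% of all genes. Of 20 genes of insulin reception and signalling, 1 fell at 6 months: Insr, the insulin receptor, at -0.18 ± 0.03 with an adjusted p of 0.00325, so 1 of 20 beside 5.67% of all genes.

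Galnt11 had a similar neighbour. Nos3, endothelial nitric oxide synthase, whose gene starts 857.1 kb from that of Galnt11, was its most similar gene of 11967 at r = 0.537, followed by Etnk2 at 0.489 and Gpt2 at 0.486. Over the 16 expressed genes within 1 Mb the median correlation with Galnt11 was 0.06 (0.055). Nos3 differed between Q175 and Q20 by 0.35 ± 0.16, -0.19 ± 0.20 and 0.42 ± 0.17 at 2, 6 and 10 months, with adjusted p-values of 0.608 and 0.251 at the later ages. Of 25 tested genes within 1 Mb of the start of Galnt11, 1 rose with the repeat at 6 months, beside 5.67% of all genes called. It was Slc4a2, at 0.10 ± 0.03 with an adjusted p of 0.0336, and it was named after its value was seen. The 2 nearest, Kmt2c and 2900005J15Rik, had slopes of -0.07 ± 0.05 and 0.20 ± 0.12 with adjusted p-values of 0.455 and 0.363. Of 23 tested genes of mucin-type O-glycosylation, 1 rose with the slope at 6 months and 1 fell, beside 5.67% of all genes called. The chosen member Galnt11 was the 1 that rose. Galnt6, another of the first-sugar transferases, fell by 0.38 ± 0.11 with an adjusted p of 0.032. The list median was -0.10 against 0.00 for all genes (0.001).

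Tnfaip8l1 was higher in Q175 than in Q20 at 2 months and did not pass the test later in the main fits. At 2 months the Q20 libraries lay between 8.86 and 13.1 CPM (median 10.8), and the Q175 libraries between 11.7 and 26.3 (median 14.8.) In wild type the libraries lay between 8.55 and 15.1 CPM (median 13.7.) Within each sex all Q175 libraries were above all Q20 libraries, while in males all Q20 libraries were also below all wild-type libraries. Q175 differed from Q20 by 0.54 ± 0.12, Q92 by 0.31 ± 0.12, Q140 and Q111 by 0.12 ± 0.12 each, and Q80 by -0.02 ± 0.12. At 6 months Q20 ran from 8.52 to 21.6 CPM with a median of 12.9 and Q175 from 9.48 to 23.4 with a median of 15.9. The 6-month slope was 0.06 ± 0.08 with an adjusted p of 0.699. At 10 months Q20 ran from 9.68 to 17.2 CPM with a median of 11.7 and Q175 from 7.43 to 15.02 with a median of 11.6. The slope was then -0.12 ± 0.09 with an adjusted p of 0.685. Among the 5 expanded lines alone it was -0.43 with an adjusted p of 0.0421 in edgeR. That fit called 645 genes, against 39 in the main fit.

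Tnfaip8l1 was lower in females at every age. Females differed from males by -0.38 ± 0.06, -0.49 ± 0.07 and -0.37 ± 0.07 at 2, 6 and 10 months, with adjusted p-values of 1.05e-06, 7.08e-08 and 1.69e-05 in edgeR. At 6 months the Q175 females ran from 9.48 to 13.3 CPM and the Q175 males from 18.6 to 23.4, without overlap. The slopes of females and males differed by -0.38 ± 0.18 at 10 months, with an adjusted p of 0.301. The genes most like Tnfaip8l1 were Fpgs, the enzyme that adds glutamates to folate, at r = 0.517, Fam89a at r = 0.515 and Rfx4 at r = 0.502. Of the 4 genes of its family, 1 fell with the repeat at 6 months, beside 5.67% of all genes called. It was Tnfaip8l2, which fell by 0.37 ± 0.11 with an adjusted p of 0.0424. Tnfaip8l2 is known from immune cells, and 11 of 12 Kupffer cell markers fell in the same comparison with a list median of -0.51. In Q20 F1, F3 and F4 those markers summed to between 1097 and 1304 CPM, against at most 836 in the other 53 libraries. Their mean log2 level, relative to the 6-month median, was 0.596 in Q20 and -0.085 in wild type. In the expanded lines it ran from -0.373 in Q175 to 0.027 in Q111. The part of those cells was not tested.

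Fam25c had the steepest positive slope at 2 months and none later. At 2 months the Q20 libraries lay between 4.80 and 12.9 CPM (median 5.59), and the Q175 libraries between 6.46 and 17.5 (median 11.6.) Wild-type libraries ran from 4.35 to 9.54 CPM with a median of 6.36. All 8 Q175 libraries were above the Q20 median and 4 were above every Q20 library. Against Q20 the change was 0.84 ± 0.22 in both Q140 and Q175 (0.844 and 0.845), 0.61 ± 0.22 in Q111, 0.53 ± 0.22 in Q80 and 0.19 ± 0.22 in Q92.

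The 6-month Q20 libraries of Fam25c lay between 3.24 and 10.8 CPM (median 6.72), and the Q175 libraries between 3.6 and 11.8 (median 7.12.) The slope was 0.03 ± 0.12 with an adjusted p of 0.926. At 10 months Q20 ran from 5.17 to 16.5 CPM with a median of 9.08, and Q175 from 3.03 to 11.2 with a median of 7.15. Only 1 of 8 Q175 libraries was above the Q20 median, and the slope was -0.17 ± 0.16 with an adjusted p of 0.768. Wild type had the highest median of the 7 genotypes at 6 months, 11.04 CPM with a range from 6.50 to 14.5. Q20 was lower than wild type by 0.68 ± 0.21 on the log2 scale with an adjusted p of 0.0108 and Q175 by 0.64 ± 0.21 with an adjusted p of 0.0197, where genotype and index set cannot be told apart. Within wild type, Fam25c differed by 0.62 ± 0.17 between 6 and 2 months and by -0.59 ± 0.17 between 10 and 6 months, with adjusted p-values of 0.065 and 0.0997 in edgeR. DESeq2 gave 0.0156 and 0.0295. In wild type, edgeR called 0 of 6 members between ages, with 1.31%, 1.56% and 0.0542% of all genes past the limit in 6 against 2, 10 against 2 and 10 against 6 months, respectively. Fam25c was the 1 member with an unadjusted p under 0.05 in 6 against 2 and in 10 against 6 months, where 18.3% and 17.9% of all genes had one, and no member had one in 10 against 2 months, where 16.2% did.

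The genes most like Fam25c were Serpina11, Vtn and Hpx, at r = 0.651, 0.645 and 0.627; Vtn and Hpx encode the plasma proteins vitronectin and hemopexin, which hepatocytes secrete. With the mean of the hepatocyte markers the correlation of Fam25c was -0.06, with the sinusoidal endothelial markers -0.36 (-0.365), and with 18 circadian clock genes -0.30 (-0.299). None of the 18 clock genes passed for the slope at 6 or 10 months, and the unadjusted count was 0 at both. At 2 months 0 of 18 passed either, and 5 of 18 had an unadjusted p under 0.05 both for the slope and in Q175 against Q20, beside 15.3% and 14.1% of all genes, with list medians of -0.14 and -0.15. The part of the clock genes in the change of Fam25c was not tested.

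**Figure D4:**
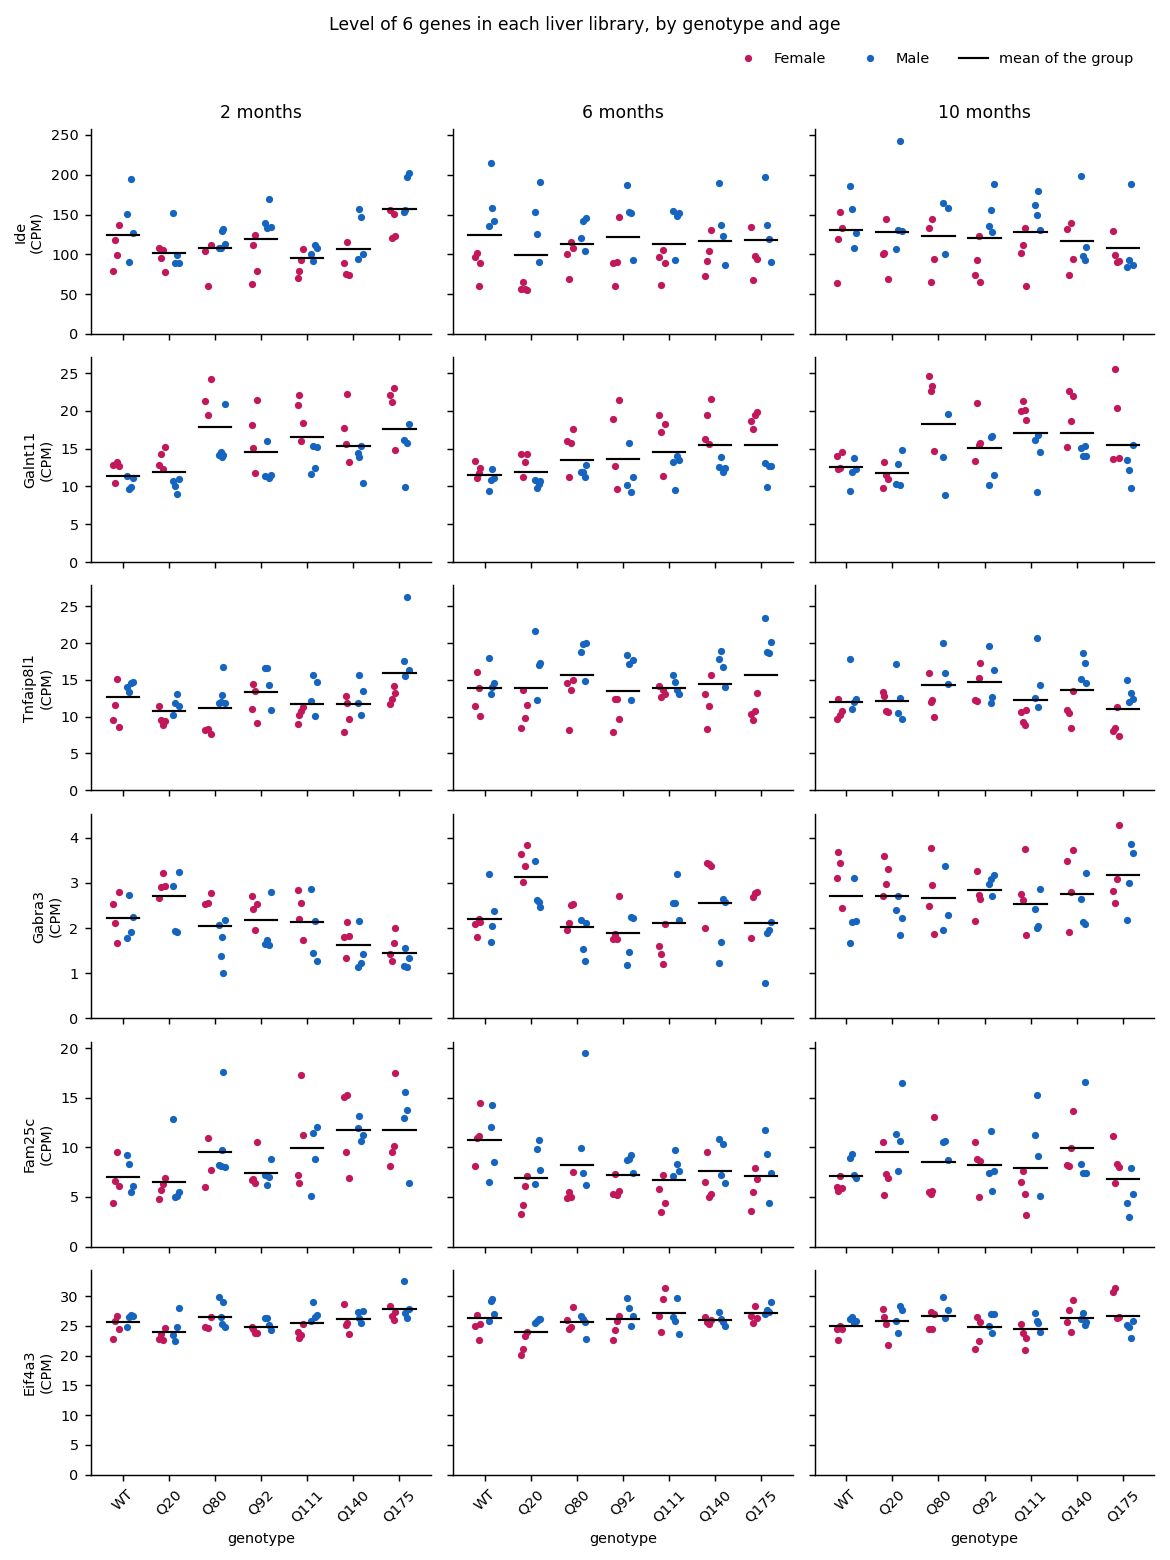
Level of each gene in every library, in CPM on an axis that starts at 0, by genotype at 2, 6 and 10 months; red points are libraries labelled female, blue points libraries labelled male, and black lines the mean of the group. At 2 months Gabra3 is lowest in Q140 and Q175 and Ide stands high in Q175 alone; Galnt11 is low in wild type and Q20 at all 3 ages, and females and males differ on average for Ide, Galnt11 and Tnfaip8l1, with overlap in some groups.

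Over the members, females and males differed in 5, 5 and 4 of the 6 at 2, 6 and 10 months in edgeR, beside 57.2%, 60.4% and 56.6% of all genes, so a difference between the sexes was common over the whole table. Gabra3 was higher in females by 0.29 ± 0.09 at 2 months and 0.20 ± 0.09 at 10 months, with adjusted p-values of 0.00288 and 0.0395. Fam25c was lower in females at 6 months, by -0.51 ± 0.11 with an adjusted p of 0.000134. Eif4a3 was lower in females by -0.08 ± 0.02 and -0.07 ± 0.03 at 2 and 6 months, with adjusted p-values of 0.00185 and 0.0406, but this direction turned on the FPKM table, where limma gave 0.02, 0.07 and 0.13 at the 3 ages. On that table the median of all genes was itself shifted towards females, by 0.08, 0.11 and 0.13 relative to the counts. The difference of the slopes between the sexes was called for 0 of 6 members at 6 months, with 0.213% of all genes called, and for 0 of 6 at 10 months, with 0.173% called. Unadjusted p-values under 0.05 were 1 at 6 months (Ide) and 3 at 10 months (Tnfaip8l1, Fam25c and Eif4a3), beside 12.4% and 15.1% of all genes, and DESeq2 called 0 at both ages.

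The members did not move together from library to library. After the mean of each group and sex was taken off, the correlations between pairs of members ran from -0.24 (-0.237) to 0.30 (0.295). Of 5 tested GABA-A receptor subunits, 0 rose and 0 fell with the repeat at 6 months. An unadjusted p under 0.05 was found for 1 of them and for 21.1% of all genes. In Q175 against Q20 the chosen member Gabra3 was the 1 that fell, beside 10.2% of all genes called. Of 10 tested genes of GABA synthesis, uptake and breakdown, 1 fell with the slope at 6 months, beside 5.67% of all genes called. It was Slc6a12, a betaine and GABA transporter, which fell by 0.24 ± 0.07 with an adjusted p of 0.0295. At 10 months no gene on the lists of relatives and partners passed for the slope, whereas 5 of 5 tested skeletal muscle markers rose. In edgeR 10% of all genes had an unadjusted p under 0.05 for that slope, and on the lists it was 4 of 26 for the exon junction complex, 3 of 12 for eIF4A partners, 3 of 20 for insulin, 2 of 25 for O-glycosylation, 2 of 8 for GABA metabolism, 2 of 7 for the peptidases, 1 of 4 for the TNFAIP8 family and 0 of 4 for GABA-A subunits. The muscle markers reached 861.5 CPM among Q175 F3, F4 and M4, though not all 3 were above the other libraries. Without these 3 libraries Q175 differed from Q20 by 0.34 for Galnt11.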

How the data were processed

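The series measured polyA RNA of mouse liver of 7 genotypes at 3 ages. The authors deposited a table of estimated counts per gene, which are not whole for 14.1% of values, and a table of FPKM; per the submitters' processing notes CASAVA 1.8.2 was used, and an aligner, counter or genome build was not given in the sources used here. Of 39179 gene IDs, 37693 matched GENCODE M21 and 1486 did not. No 2 libraries held identical values. Groups come from the titles, which give genotype, age, sex and replicate number.

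Estimated counts were rounded and tested with edgeR 4.0.16 (filterByExpr on age, genotype and sex; TMM; quasi-likelihood F test; Benjamini-Hochberg over all genes tested; limit 0.05). At each age 1 fit held the 6 knock-in lines with sex and repeat length per 100 CAG, and 1 held the 7 genotypes with sex; Q175 against wild type was a contrast added to the second. Slopes at 10 and 6 months, slopes by sex and ages within wild type had fits of their own. Likeness is Pearson's r of log2 CPM after taking off the mean of each group and sex, for genes whose mean log2 CPM was 0 or more. Alternatives were DESeq2 1.42.0, limma 3.58.1 on log2(FPKM + 0.1), RLE scaling, no low-count filter, single sexes, the index set as a covariate, left-out libraries, and the lines without Q20 or Q175. Only the slope fit at 10 months was run on simulated counts with known changes. Their spread left out the quasi-likelihood part, so the run does not check the fit at the spread of these libraries.

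The 6 members, the gene lists and the libraries left out were chosen with earlier results of these data known. Genes named were the members, up to 2 genes past the limit per list of relatives, the 3 genes most like each member and the 2 nearest neighbours; of the neighbours, those of Galnt11 are given, and other genes named are said to be so or are the markers that passed. Depth limits Gabra3 most. Coordinates are those of GENCODE M21 on GRCm38.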

Additional observations from a re-analysis of the deposited data

Results flagged for a closer look

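Of 126 sets checked, each 1 gene in 1 group of genotype and age with both sexes together, 13 had 1 library far from the others by Dixon's criterion. For Ide these were Q80 F2 at 2 months with 59.9 CPM, below the rest of its group, and, above the rest, Q20 M1 at 2 months with 151.4 CPM, Q20 M3 at 10 months with 242.7 CPM and Q175 M3 at 10 months with 188.9 CPM. For Tnfaip8l1 they were Q175 M3 at 2 months with 26.3 CPM, Q111 M2 at 10 months with 20.7 CPM and wild-type M1 at 10 months with 17.9 CPM, all high. For Gabra3, wild-type M1 at 6 months was high with 3.20 CPM. For Fam25c, Q20 M1 at 2 months with 12.9 CPM, Q80 M4 at 2 months with 17.6 CPM and Q80 M3 at 6 months with 19.5 CPM were high. For Eif4a3, Q175 M1 with 32.5 CPM and Q20 M4 with 28.1 CPM, both at 2 months, were high. Q20 M1 at 2 months was far from its group for both Ide and Fam25c. In samples from 1 normal population chance flags about 1 in 20. These sets held both sexes, and all flagged libraries but Q80 F2 were labelled male, so the count cannot be set against that rate. No cause was tested.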

How the results depend on the processing

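The slopes and Q175 against Q20 had up to 12 alternatives beside left-out libraries, and the other comparisons 2 or 3. Leaving out those at 2 months, 670 of 779 single-gene values kept direction and side of the limit. That count pools values that passed in the main fit with those that did not. At 6 months, beside left-out libraries, the slope of Galnt11 passed in 5 of 12 alternatives and that of Eif4a3 in 3 of 12. Q175 against Q20 passed in 4 of 9 for Galnt11, 5 of 9 for Eif4a3 and 5 of 9 for Gabra3. The slopes and Q175 against Q20 at 2 months carry no test. Of 324 such values 323 kept their sign, but these fits reuse libraries that chose the members, so the count does not test the changes. RLE scaling changed none. Depth limits Gabra3 most. The index set could not be fitted for Q175 against Q20 at 6 months. Unless the alternative leaves out samples or genes, the cause of a change was not tested.

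Genes past the limit for the slope at 2 months, 40 in the main fit, were 169 with DESeq2, 20 with no low-count filter, 22 with the replicate block, 2 in females, 1 in males, 81 with the index set, 25 with the rank of the repeat, 2 without Q20, 0 without Q175 and 13 to 70 with single libraries left out. For Q175 against Q20 at 2 months, 39 in the main fit, they were 143 with DESeq2, 23 with no filter, 0 in females, 12 in males, 73 without Q80 M5, 91 with only these 2 groups and 13 to 71 with single libraries left out. The slope of Ide without Q175 was -0.002.

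At 6 months the slope, 879 genes and 2 members in the main fit, gave 528 genes and 0 members with limma on FPKM, 281 and 0 in females, 125 and 0 in males, 566 and 1 with the rank, 13 and 0 without Q20, 300 and 0 without Q175, and 23 and 0 without Q20 F1, F3 and F4. It gave 1 member with no filter, 0 with the index set, and 414 to 1006 genes and 0 to 2 members with single libraries left out. Q175 against Q20, 1595 genes and 3 members, gave 1 member with limma, 0 with no filter, 533 genes and 1 member in females, 780 and 0 in males, 2 and 0 without Q20 F1, F3 and F4, and 901 to 1939 genes and 0 to 3 members with single libraries left out.

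At 10 months the slope, 39 genes, gave 15 with DESeq2, 1 with limma, 382 with no filter, 6 with the replicate block, 10 in females, 4 in males, 6 without the muscle and blood libraries, 645 genes and 1 member without Q20, 1 gene without Q175, and 5 (without Q175 F3) to 55 with single libraries left out. Q175 against Q20, 146 genes, gave 0 with limma, 283 with no filter, 7 with the replicate block, 0 in females, 3 without the muscle and blood libraries, 0 with only these 2 groups, and 23 (without Q175 F3) to 301 with single libraries left out. Within wild type DESeq2 called 1 member, Fam25c, for 6 against 2 and 1 for 10 against 6 months.

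Directions turned in males for Ide at 6 months (slope -0.03, Q175 against Q20 -0.05 (-0.054)), Fam25c at 6 months (-0.10 (-0.102) and -0.09 (-0.092)), Tnfaip8l1 at 10 months (0.08 (0.084) and 0.10 (0.098)) and Eif4a3 at 10 months (-0.05 (-0.054) and -0.08 (-0.077)). In females they turned at 10 months for the slope of Ide (0.015) and for Fam25c (0.18 (0.182) and 0.17 (0.171)). With the index set the slopes of Tnfaip8l1 and Fam25c at 6 months were -0.04 (-0.043) and -0.04 (-0.038), and with the rank that of Fam25c was -0.001. Without Q20 the slopes were 0.20 (0.204) for Gabra3 and -0.07 (-0.071) for Fam25c at 6 months and -0.09 (-0.091) for Galnt11 at 10 months. Without Q175 they were 0.07 (0.071) for Tnfaip8l1, 0.01 (0.011) for Fam25c and -0.008 for Eif4a3 at 10 months. With limma on FPKM, sex differences were 0.01 for Fam25c at 2 months and 0.02, 0.07 (0.072) and 0.13 for Eif4a3 at the 3 ages. There Fam25c in Q175 against Q20 at 6 months was -0.006, Tnfaip8l1 in Q20 against wild type at 6 months 0.09 (0.089), the slope difference of Galnt11 between ages 0.04 (0.045), and 6 against 2 months in wild type -0.01 (-0.013) for Galnt11 and -0.009 for Eif4a3. With single libraries left out Fam25c at 6 months ran from -0.02 (-0.023) to 0.08 (0.081) for the slope and from -0.05 (-0.048) to 0.15 (0.147) for Q175 against Q20, and the slope of Eif4a3 at 10 months from -0.003 to 0.035.

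Replicate numbers were not used as pairs in the main fits, and pairing was not tested. Same-numbered libraries of an age and sex had mean correlations of -0.011, 0.086 and 0.005 at 2, 6 and 10 months. Other pairs had 0.004, -0.028 and -0.001, so same-numbered libraries were slightly more alike at 6 months. The replicate block changed no call of a member at 6 or 10 months.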
